A study of Mus musculus with 3 samples.

Results

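The 1076 highest scoring RARα peaks in mouse liver were those with a peak score greater than 100 in the deposited RARα list, at any distance from a gene, and they made up 0.751% of the 143280 listed peaks. They were chosen by that score, so their scores and widths are given as a description only. Chromatin was immunoprecipitated with anti-RXRα or anti-RARα antibody and sequenced beside input DNA (sonicated chromatin without antibody). All 3 libraries came from whole livers of wild type male C57BL/6 mice, which were 3 months old by the labels and 12 weeks old by the study's methods. Each antibody and the input had 1 library, so there was no replicate and no test between libraries was possible. The input is labelled as that of the RXRα experiment, and no separate RARα input is among the 3 libraries. The deposited RXRα and input tracks hold 9999940 and 9999290 reads by their total coverage at 5 bins a read. Whether these near-equal totals are all the reads of each library was not settled, so read counts and their intervals refer to the tracks. The RARα peak list gives no depth. The intervals given are 95% intervals that cover counting error only, and they treat neighbouring peaks as independent, which makes them too narrow.

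RARα is a nuclear receptor that binds DNA as a heterodimer with RXRα and switches transcription when retinoic acid, a derivative of vitamin A, occupies it. The pair recognises 2 copies of the hexamer AGGTCA, or a close variant, usually arranged as direct repeats (DR) that are named by the number of bases between the copies. RXRα also partners the liver receptors for fatty acids, oxysterols, bile acids and xenobiotics. Hepatocytes take up dietary vitamin A, and secrete retinol bound to retinol binding protein.

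The score is that of the deposited peak list, which was made with the peak caller MACS, and its scale is not stated. It ran from 101 to 382 among the 1076 peaks, with a median of 123. The median width was 671 bp, against 571 bp for the 6335 peaks with a score of 51 to 100 and 320 bp for the whole list. The threshold cut through a continuous range, since 37 peaks had a score of 101 and 38 had a score of 100. Just inside lay peaks nearest to 1200016B10Rik, 1500003O03Rik and Gm355, with RXRα enrichments of 3.55, 4.38 and 6.17. Just outside lay peaks nearest to Ccnyl1, Wdfy1 and 4921528O07Rik, at 2.75, 4.37 and 3.75. RXRα enrichment is the mean RXRα coverage of the peak divided by the larger of its mean input coverage and the genome mean of the input, in 32 bp bins and after scaling to equal depth.

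Very high input was found at 16 of these peaks, which are set out before the other results. Their mean input was above 10 per bin, which held for 1.49% of the high scoring peaks and for 0.0335% of the whole list, and 5 of the 10 highest scores were among them. None of the 16 overlapped an RXRα region. At 7 of them, beside the predicted genes Gm10800, Gm10801, Gm17535 and Gm5614 on chromosomes 2 and 9, the input exceeded 100 per bin and RXRα was lower than input, at 0.121 to 0.316 times. The peak in Gm10800 (chr2:98507201-98507611, score 218) had a mean of 26123 input and 3163 RXRα per bin. At 5 others, in or beside the pseudogene AY036118 on chromosome 17 (scores 238 to 382), the input was 37.1 to 47.0 per bin and RXRα enrichment 1.32 to 2.08. Of these 5 summits, 1 lay inside AY036118, and the farthest lay 5397 bp from its start. In the RefSeq annotation the gene symbol overlapping AY036118 is Rn18s-rs5, a pseudogene of 18S ribosomal RNA. The nearest protein-coding gene there, Pgk2, lay over 300 kb away and is named only as a position. The other 4 were nearest to Cr2, Pxmp3, Axin2 and Gm6020. Outside these 16 the highest mean input of any high scoring peak was 9.1 per bin. Sequence from 2 of these loci is shown because input was far above the genome mean there, with no part in capitals, read from the mm9 genome at chr2:98507235-98507354 and chr17:39981285-39981364, both on the plus strand. The chromosome 17 stretch lies outside AY036118 and is labelled by it as the nearest gene of any type.
Gm10800: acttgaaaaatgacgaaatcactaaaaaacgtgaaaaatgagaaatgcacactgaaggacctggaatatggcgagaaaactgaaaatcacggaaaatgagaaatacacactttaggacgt
AY036118: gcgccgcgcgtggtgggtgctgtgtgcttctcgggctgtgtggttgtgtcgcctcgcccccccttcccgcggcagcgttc

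Short stretches from the peaks and from promoters beside their summits carry the sequence features described further on, and they were chosen after their values were seen. The first set holds the letters TATAAA, in capitals, in the 50 bases before the annotated gene start (TSS), shown 5′ to 3′ on the gene's strand, because that motif was more frequent at these genes than at genes with lower scoring peaks. The stretches lie at chr8:87502618-87502667 (minus strand) for Junb, chr11:69572140-69572189 (minus) for Polr2a, chr7:35904262-35904311 (plus) for Cebpa, chr12:7984404-7984453 (plus) for Apob, chr12:86814790-86814839 (plus) for Fos and chr11:94072718-94072767 (plus) for Tob1.
Junb: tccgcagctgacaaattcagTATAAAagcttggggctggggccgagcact
Polr2a: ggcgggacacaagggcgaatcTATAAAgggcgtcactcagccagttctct
Cebpa: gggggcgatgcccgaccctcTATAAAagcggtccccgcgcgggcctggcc
Apob: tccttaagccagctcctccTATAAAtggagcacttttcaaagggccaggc
Fos: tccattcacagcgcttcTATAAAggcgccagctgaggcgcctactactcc
Tob1: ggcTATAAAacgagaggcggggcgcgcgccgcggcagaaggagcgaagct

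The second set holds the receptor hexamer AGGTCA, in capitals, under 4 peaks with some of the highest RXRα enrichments. They lie at chr6:5361078-5361117 (minus) for Asb4, chr13:94013223-94013262 (minus) for Papd4, chr8:3467514-3467553 (plus) for Pex11c and chr15:80535003-80535042 (minus) for Fam83f.
Asb4: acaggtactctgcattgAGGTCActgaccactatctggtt
Papd4: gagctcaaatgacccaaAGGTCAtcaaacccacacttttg
Pex11c: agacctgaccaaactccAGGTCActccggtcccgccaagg
Fam83f: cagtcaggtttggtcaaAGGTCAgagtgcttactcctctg

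The only 2 windows with a DR4 match, in which 4 bases separate the hexamers, are shown with the repeat in capitals, at chr4:117502239-117502278 (minus) for Slc6a9 and chr5:122043506-122043535 (minus) for Aldh2.
Slc6a9: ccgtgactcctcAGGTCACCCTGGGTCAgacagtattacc
Aldh2: ccatttcAGTTCAGTTCGGGTCAgttaagc

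The next set holds a cyclic AMP response element (CRE), TGACGTCA, in promoters of immediate early genes and feedback regulators. The last set holds a match to the core of the motif of CTCF, an insulator and loop-anchoring protein, in peaks far from a gene start. The capitals mark the match. The CRE stretches lie at chr1:135975875-135975914 (minus) for Btg2, chr8:87186773-87186812 (minus) for Ier2 and chr15:59479773-59479812 (plus) for Trib1. The CTCF stretches lie at chr15:101896239-101896278 (minus) for the peak nearest to Eif4b, chr7:35457109-35457148 (minus) for Kctd15, chr6:124853754-124853793 (plus) for Lag3 and chr13:75935474-75935513 (minus) for Glrx.
Btg2: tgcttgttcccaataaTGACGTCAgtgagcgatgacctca
Ier2: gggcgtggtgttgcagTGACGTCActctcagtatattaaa
Trib1: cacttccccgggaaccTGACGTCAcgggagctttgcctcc
Eif4b: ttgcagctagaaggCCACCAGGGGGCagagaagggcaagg
Kctd15: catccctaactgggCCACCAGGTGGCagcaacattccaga
Lag3: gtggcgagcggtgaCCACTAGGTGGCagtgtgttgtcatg
Glrx: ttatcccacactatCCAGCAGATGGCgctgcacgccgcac

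The high scoring peaks lay mainly on gene starts. The peak summit was within 1 kb of a protein-coding TSS (GENCODE M1, mm9) in 724 of the 1076 peaks (67.3%, Wilson interval 64.4 to 70.02), against 17.8% of the whole list. The peak itself spanned the TSS in 58.1%, against 6.73% of the list. Among the 724, the median summit lay 36 bp downstream of the TSS, with 525 summits downstream and 199 upstream. The remaining 352 divided into 149 at 1 to 10 kb, 181 at 10 to 100 kb and 22 beyond 100 kb. With the starts of all transcripts of all gene types counted, 77.6% of the high scoring peaks and 25.3% of the list lay within 1 kb. Without the 16 peaks of high input the share within 1 kb of a protein-coding TSS was 67.9%.

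**Figure D1:**
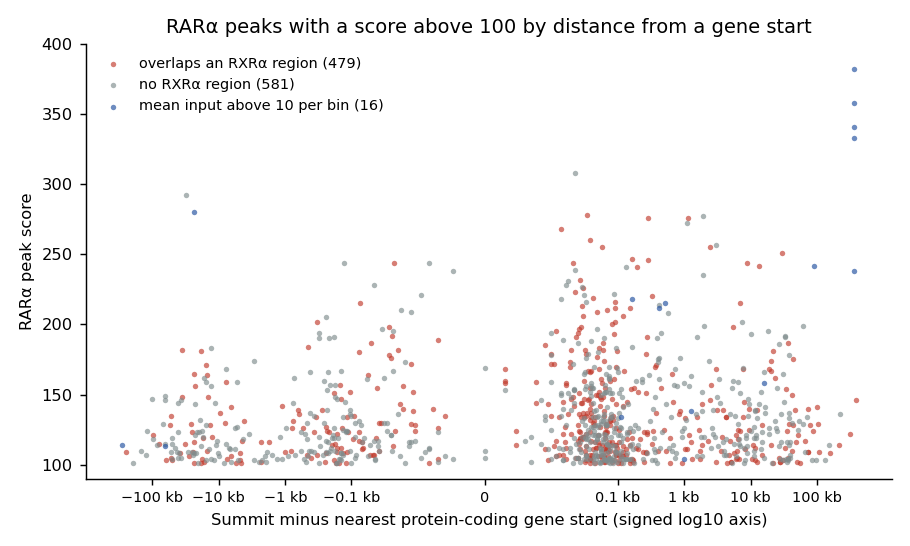
RARα peak score of each high scoring peak (y axis) against the distance from its summit to the nearest protein-coding TSS (x axis, signed log10 scale), where red points overlap an RXRα region (479), grey points do not (581) and blue points have mean input above 10 per bin (16). Of 1076 peaks, 724 lie within 1 kb of a TSS and 22 lie beyond 100 kb.

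By gene part, 516 summits (48.0%) fell in a 5′ UTR, against 28.2% of the peaks with a score of 51 to 100 and 5.68% of the list. Introns held 137 (12.7%), against 49.98% of the list, and 3′ UTRs held 2 (0.186%), against 3.25%. Coding sequence held 62 (5.76%), transcripts of other gene types 58 (5.39%), and 301 (28.0%) lay outside any transcript. The share in 5′ UTRs was thus higher, and that in introns lower, than over the list. Chromosome 11 carried the most high scoring peaks, 112 of its 10182 listed peaks (1.10%), against 0.751% over the whole list. Per 100 protein-coding gene starts it had 6.78, and chromosome 12 had more, 7.53. The X chromosome carried 3 of its 1713 listed peaks (0.175%), named after their values were seen as Ddx3x, Efnb1 and Pgrmc1, with scores of 120, 112 and 111.

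The highest scores outside the loci of high input lay at the genes named next. Junb, an AP-1 transcription factor, had a score of 308 (chr8:87502341-87503101), mean RXRα of 12.7 and mean input of 4.62 per bin, an RXRα enrichment of 2.74 (1.68 to 4.74 from 61 RXRα and 22 input reads). The long non-coding RNA Malat1 scored 292 with an enrichment of 2.42. Polr2a, the largest subunit of RNA polymerase II, scored 278 (chr11:69571921-69572481) with an enrichment of 9.16 (4.26 to 27.9). RXRα coverage was close at Junb and Polr2a, 12.7 and 16.3 per bin, while input was 4.62 and 1.78, and the intervals of the 2 enrichments overlapped. Ing1, a chromatin reader, scored 277 with 6.97, and Errfi1, a feedback inhibitor of the EGF receptor, and Hspa8, the constitutive HSP70 chaperone, both scored 276, with enrichments of 2.66 and 10.2. Gm11175, a predicted gene, scored 272 with 4.25. Cebpa, which encodes a transcription factor of the hepatocyte state, scored 268 (chr7:35903681-35904991) with 14.4 (7.14 to 31.3). Gpx1, a glutathione peroxidase, scored 260 with 7.27, the bromodomain gene Brd2 scored 257 with 3.27, and the selenium carrier gene Sepp1 scored 255 with 5.58. RXRα coverage was above input at each of these genes, over a range of enrichment that did not follow the order of the scores.

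RXRα was also present at most of the high scoring peaks, but seldom at its strongest. An RXRα region was a run of bins, joined within 200 bp, with RXRα at least 20 times the larger of the bin's input and the mean input, and it had to cover at least 25% of the narrower interval. Such a region overlapped 479 of the 1076 peaks (44.5%, 41.6 to 47.5), against 32.2% of the peaks with a score of 51 to 100 and 17% of the list. The median enrichment was 4.90 (4.55 to 5.15), against 4.24 at scores of 51 to 100 and 2.18 over the list. The enrichment was at least 2 in 984 peaks (91.4%), against 51.7% of the list, and below 1 in 15 (1.39%), against 32.1%. These shares are not relative to raw input, since the floor at the genome mean, 0.603, lowers enrichment where input is low. Over the list the lower quartile of input was 0.5. With a lower floor the median enrichment was 4.92 at the high scoring peaks and 2.75 over the list, a narrower contrast. At the upper end the order was another. At least 10-fold was reached by 16.4% of the high scoring peaks, 14.3% at scores of 51 to 100, 21.6% at 21 to 50 and 13.3% of the list. At least 20-fold was reached by 3.62% of the high scoring peaks, 2.89% at 51 to 100, 7.03% at 21 to 50 and 4.51% of the list. Without the 16 peaks of high input the overlap was 45.2% and the median enrichment 4.95.

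Wider peaks overlapped RXRα regions more often, and width rose with score. In a fixed window of 100 bp on each side of the summit, an RXRα region was present in 32.3% of the high scoring peaks (29.6 to 35.2), 25.3% at scores of 51 to 100 and 16.3% of the list, and the median enrichments were 6.58, 5.54 and 2.35. Within width classes, the overlap at high scoring peaks against scores of 51 to 100 was 22.9% against 17.7% up to 400 bp, 37.8% against 26.3% at 401 to 600 bp, 45.1% against 39.2% at 601 to 800 bp and 53.8% against 48.0% above 800 bp. The share was higher at the high scoring peaks in each width class, with intervals that overlapped in all but that of 401 to 600 bp. The median enrichment above 800 bp was in the opposite order, 4.78 against 4.92. At single peaks the counts were small, with medians of 41 RXRα and 8 input reads. The counting interval of the ratio of reads lay above 1 in 948 peaks (88.1%), included 1 in 121 and lay below 1 in 7.

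Within the high scoring peaks RXRα coverage and input both rose with the RARα score, and their ratio was flat. The median RXRα coverage per bin was 8.70 (8.0 to 9.25) at scores of 101 to 120, 9.58 at 121 to 150, 9.80 at 151 to 200 and 12.5 (9.95 to 15.4) above 200. The median input was 1.82, 2.0, 2.21 and 2.48 in the same classes. The overlap was 42.4% at scores of 101 to 120, 47.2% at 121 to 150, 44.5% at 151 to 200 and 47.1% (35.7 to 58.8) above 200, and the medians of enrichment were 5.06, 4.76, 4.93 and 4.65, with overlapping intervals for both measures. Across the 1076 peaks Spearman's rho between score and enrichment was -0.03, against 0.378 over the whole list, as a description over peaks that share the same libraries and are not independent. Next to the threshold, a region overlapped 18 of 37 peaks of score 101 and 14 of 38 of score 100.

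**Figure D2:**
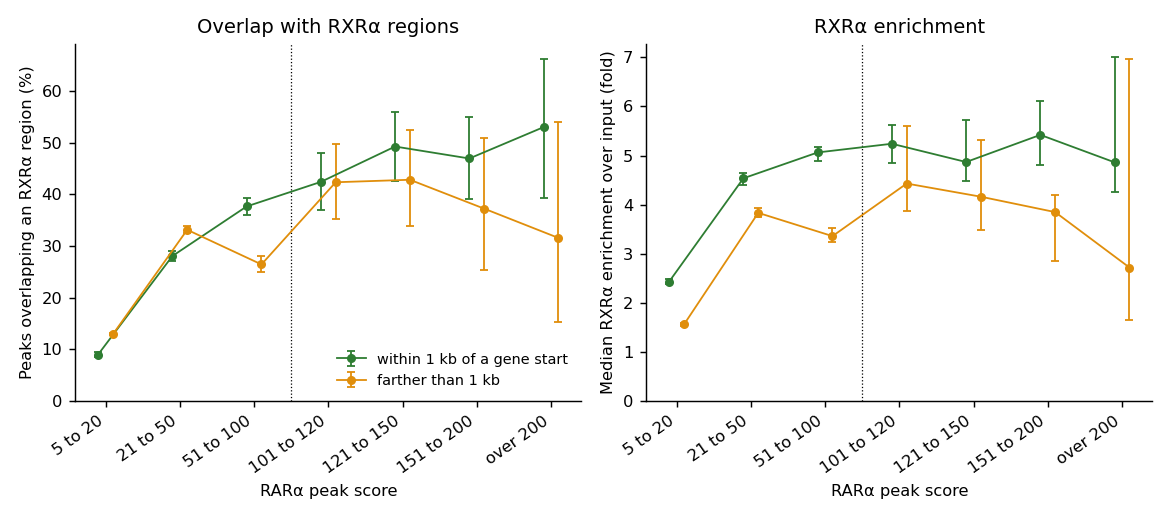
Share of RARα peaks that overlap an RXRα region (left, percent) and median RXRα enrichment over input (right, fold) by class of RARα score (x axis), for peaks within 1 kb of a gene start (green) and farther away (orange), with 95% intervals of counting error. The dotted line marks the threshold of 100; near gene starts the share is 37.7% just below it and 42.4% to 53.1% above, and farther away 26.4% below and 31.6% to 42.9% above.

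Input itself was raised under these peaks. Its median was 1.97 per bin (1.91 to 2.07), against 1.79 at scores of 51 to 100, 1.09 over the list and a genome mean of 0.603. RXRα had a median of 9.31 per bin, against 7.0 and 2.5. In the flanks, at 2 to 5 kb from the peak edges, the medians at high scoring peaks were 1.95 for RXRα and 1.04 for input, against 0.941 and 0.814 for the list. Other listed peaks in the flanks were not left out. Both tracks were thus above their list medians at the peak and beside it. The part of the raised input in the RARα scores was not tested.

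**Figure D3:**
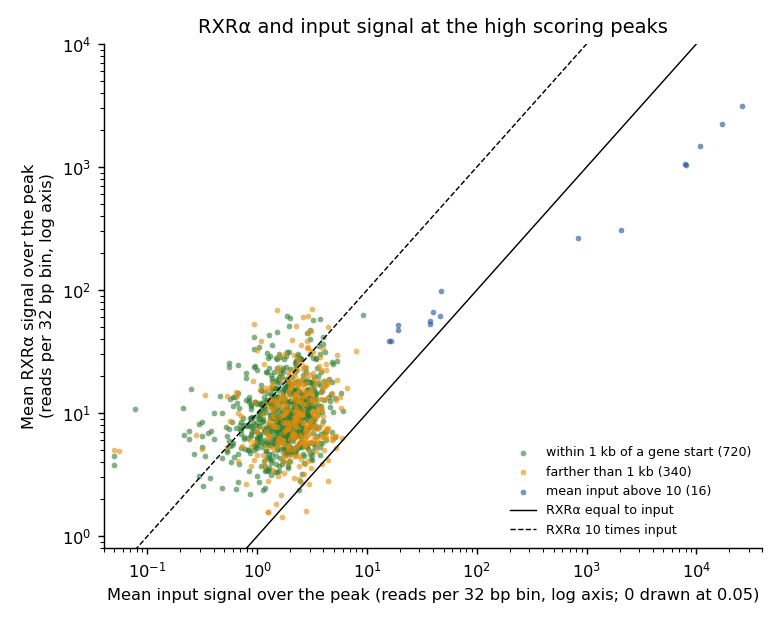
Mean RXRα coverage (y axis) against mean input coverage (x axis) of each high scoring peak, in reads per 32 bp bin on log axes, with peaks near a TSS in green, others in orange and those of high input in blue, where the solid line marks RXRα equal to input and the dashed line 10 times input. Of 1076 peaks, 16 have input above 10 per bin, and 7 of these lie above 100 with RXRα below input.

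RXRα enrichment was higher near gene starts than farther away, while the overlap with RXRα regions did not differ beyond counting error. An RXRα region overlapped 46.1% of the 724 peaks within 1 kb of a TSS (42.5 to 49.8) and 41.2% of the 352 others (36.2 to 46.4), with median enrichments of 5.15 (4.87 to 5.46) and 4.13 (3.85 to 4.57). At scores of 51 to 100 the shares were 37.7% and 26.4%, a difference from the high scoring peaks that was wider away from gene starts. By part the overlap was 49.2% in 5′ UTRs, 44.5% in introns, 43.1% in other transcripts, 38.5% outside transcripts and 35.5% in coding sequence. The highest RXRα bin lay within 100 bp of the RARα summit in 61.2% of the high scoring peaks, against 70.1% at scores of 51 to 100 and 66.4% of the list. In the 724 peaks near a TSS the highest RXRα bin lay upstream of the TSS in 443 (61.2%), while the RARα summits lay downstream in 525.

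The highest RXRα enrichments were found at peaks of modest score. Asb4, an ankyrin repeat gene, carried an intronic peak (chr6:5360901-5361400, score 102) with RXRα of 53.4 and input of 0.938 per bin, an enrichment of 56.9 (19.2 to 279). A peak upstream of Papd4 (score 103, summit at -51077 bp from the TSS) reached 46.3. The promoter of Nfe2l2, which encodes the antioxidant regulator NRF2, scored 114 and reached 43.7, and 2310004N24Rik, Ptprk and Pex11c reached 42.6, 39 and 36.7. All 6 overlapped an RXRα region. Outside the loci of high input, the lowest values were 0.583 at a peak nearest to Tbc1d1 (0.123 to 2.25) and 0.646 in Errfi1, and the first of these intervals includes 1.

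From the side of RXRα, the high scoring peaks touched few of its regions, a share limited by their own number, 0.751% of the listed peaks. Of 42117 RXRα regions, 528 (1.25%) touched a high scoring peak and 22610 (53.7%) touched any listed RARα peak. Of the 1000 strongest RXRα regions, 791 touched a listed RARα peak and 8 touched a high scoring one. These 8 peaks were nearest to Fam131c, Abhd15, Osgin1, Nfe2l2, Fgb, Rnf103, Wwox and Acad12, named after their values were seen, and their regions ranked from 352 to 949.

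The 1076 peaks had 943 different nearest protein-coding genes, 4.24% of all gene symbols, while a peak with a score greater than 20 was nearest to 58.3%. Of the 943 genes, 876 had 1 peak, 51 had 2 and 16 had 3 or more. The gene groups described next were chosen with earlier results of these data known, some genes stand in several groups, and each count is a description to be read beside 4.24%.

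Immediate early genes, which are transcribed within minutes of a stimulus, were grouped with feedback regulators. This group had the highest share, with 36 of 57 genes (63.2%, 50.2 to 74.5). Well-known immediate early genes without a high scoring peak included Egr1, Egr2, Egr3, Fosb, Nr4a1, Nr4a2 and Nr4a3. Of their 56 peaks, 18 overlapped an RXRα region, and the median enrichment was 3.84. Errfi1 alone held 17 of the 56, and with only the highest scoring peak of each gene, a count added after seeing the data, 16 of 36 overlapped a region and the median was 4.65, close to the 4.90 of all 1076 peaks. After Junb and Errfi1, the top scores were at the antiproliferative gene Btg2 (239, enrichment 4.51) and Ier2 (228, 2.64). The AP-1 genes Jun (216, 4.56) and Fos (146, 5.53) and the mRNA decay factor Zfp36 (226, 7.10) were also present, named after their values were seen. Heat shock and chaperone genes followed with 19 of 47 (40.4%, 27.6 to 54.7), where 8 of 20 peaks overlapped a region. Beside Hspa8, they included the endoplasmic reticulum chaperones Hspa5 (241, enrichment 3.48), Calr (222, 3.43) and Hsp90b1 (210, 9.27).

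Hepatocyte transcription factor genes had 9 of 26 (34.6%), with 5 of 11 peaks in an RXRα region and a median enrichment of 4.73, or 9.18 with 1 peak a gene. After Cebpa came Cebpb (216, enrichment 4.73), an acute phase regulator, Foxo3 (160, 12.4), a mediator of insulin signalling, and the pioneer factor gene Foxa3 (156, 2.77). Glucose and insulin genes had 13 of 37 (35.1%), with 12 of 19 peaks in a region. They included tyrosine aminotransferase, Tat (213, 12.9), the insulin receptor substrate Irs2 (184, 11.8), the glycogen regulator Ppp1r3c (172, 6.92) and the gluconeogenic enzyme gene Pck1 (157, 5.34). All 4 of these peaks overlapped a region.

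Sterol and lipoprotein genes had 16 of 49 (32.7%), with 15 of 19 peaks in an RXRα region and a median enrichment of 8.67, or 8.87 with 1 peak a gene. Apoa1, the main protein of high density lipoprotein, scored 212 with an enrichment of 15.3, and Apob, that of very low density lipoprotein, scored 182 with 5.02. The cholesterol synthesis gene Idi1 (173, 1.25) and its regulator Insig1 (161, 2.36) had no region. Named after their values were seen, the cholesterol exporter Abca1 (124, 33) and the sterol 27-hydroxylase gene Cyp27a1 (111, 13.5) each had one. Fatty acid and triglyceride genes had 17 of 59 (28.8%), with 10 of 18 peaks in a region. Among the highest scores were the triglyceride synthesis gene Dgat2 (209, 4.25), the acyl-CoA synthetase gene Acsl1 (184, 3.62) and the lipase inhibitor gene Angptl4 (179, 5.46), none of which overlapped a region.

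Secreted plasma protein genes had 14 of 60 (23.3%), with 21 of 33 peaks in an RXRα region and a median enrichment of 5.10. With only the highest scoring peak of each gene, all 14 overlapped a region and the median was 13.7, since Alb alone held 12 of the 33. Beside Sepp1 the top scores were at the serpin gene Serpina3k (244, enrichment 8.49), albumin, Alb (242, 2.72), and the fibrinogen gene Fgg (194, 18.1). Complement C3 (142, 32.7), Fgb (148, 26.4) and the haem carrier hemopexin, Hpx (136, 19.2), named after their values were seen, had higher enrichments at lower scores.

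Genes of transcription and translation had lower shares than the liver groups, though most were above 4.24%. Histone genes had 12 of 67 (17.9%; Hist1h4d 244, enrichment 8.16; Hist1h4c 238, 4.95). RNA polymerase II and general factor genes had 9 of 54 (16.7%), among them Hexim1 (215, 6.23), an inhibitor of the elongation kinase P-TEFb, Gtf2a1 (199, 3.14) and Taf13 (188, 7.5). RNA processing genes had 15 of 100 (15%), led by the splicing factor gene Srsf7 (244, 3.62), Hnrnpab (187, 2.29) and Srsf2 (179, 8.93). Translation factor genes had 9 of 67 (13.4%), with Eef1a1 (202, 6.13) and Eif4g2 (178, 3.8), and ribosomal protein genes 11 of 150 (7.33%), with Rpl3 (190, 2.11). Of the 11 ribosomal protein peaks, 3 overlapped an RXRα region, and their median enrichment was 2.80. In the proteasome and ubiquitin group 1 of 55 genes, Ubb (161, 2.63), had a high scoring peak (1.82%).

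The genes of the receptors' own pathways were few in number among the high scoring peaks, but as shares of their groups they were near or above the background. Of 44 retinoid genes, 2 had one (4.55%, 1.26 to 15.1), a share near the background of 4.24%. They were the plasma carriers of retinol, Rbp4 (score 110, enrichment 24.4) and Ttr (104, 11.3), and both overlapped an RXRα region. The receptor genes themselves had peaks below the threshold, with highest scores of 87 at Rxra, 70 at Rxrb, 52 at Rara, 27 at Rarg and 14 at Rarb, and the retinoic acid hydroxylase gene Cyp26a1 had 25. At the Rara peak of score 52 the RXRα enrichment was 31.0. Among genes of receptors that pair with RXRα and related nuclear receptors, 3 of 39 had a high scoring peak (7.69%), namely the mineralocorticoid receptor gene Nr3c2 (157, 23.5), the fatty acid receptor gene Ppara (113, 4.90, summit at -18748 bp from the TSS) and the clock repressor gene Nr1d1 (111, 6.10). Coregulator genes had 3 of 24 (12.5%; Crebbp 147, Ncoa3 137 and Ncoa4 121), and clock genes 3 of 22 (13.6%; Cry2 124, Nr1d1 111 and Dbp 106).

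**Figure D4:**
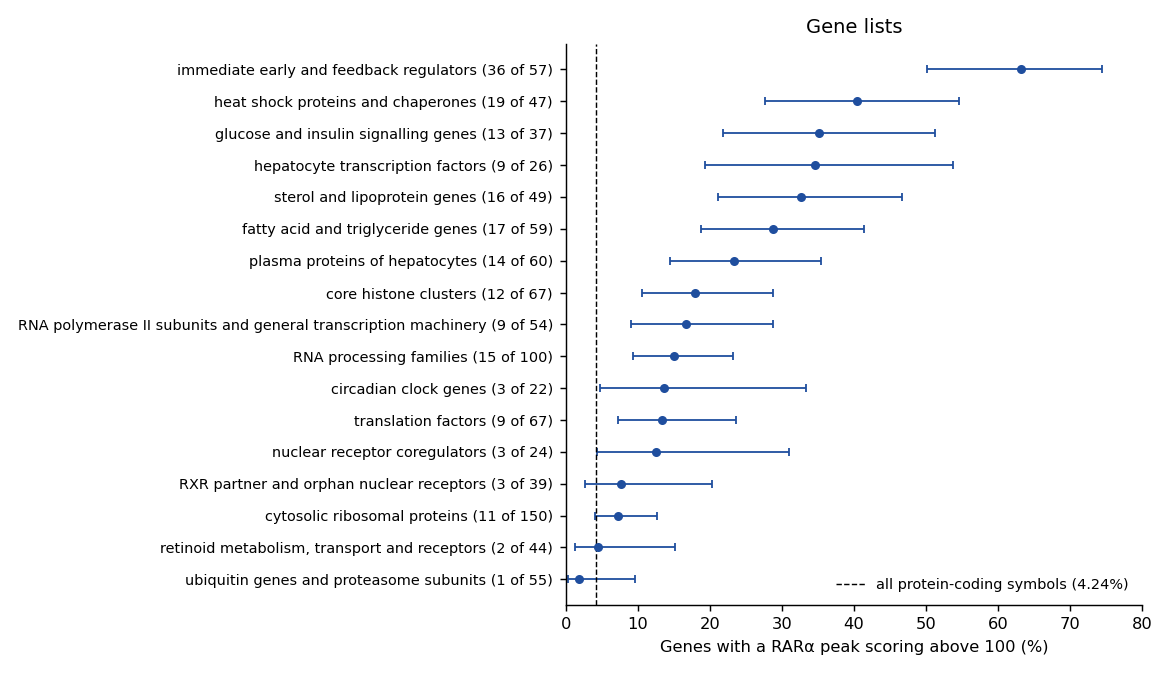
Share of the genes of each group that are nearest to a high scoring RARα peak (x axis, percent, with 95% Wilson intervals), by gene group (y axis). Immediate early and feedback regulators have the highest share, 63.2%, retinoid genes have 4.55% and all protein-coding symbols have 4.24%.

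At some genes high scoring peaks followed each other along much of the gene, as runs of peaks that abut. Of the 1076 peaks, 818 (76.0%) lay in a run of abutting listed peaks of any score, against 57.3% of the list. Only 131 of the 1076 shared such a run with another high scoring peak. Errfi1 had 17 high scoring peaks over 16011 bp (chr4:150228751-150244761), which covered 89.2% of the gene, with scores of 103 to 276, RXRα enrichments of 0.646 to 4.01 and an RXRα region at 2. Alb had 12 over 15541 bp, which covered 91.0% of the gene, with scores of 119 to 242, enrichments of 1.06 to 5.10 and a region at 2. Serpina3k had 7 over 9981 bp (98.1% of the gene), with enrichments of 1.90 to 10.9 and a region at 5, and the long non-coding RNA Neat1 had 8 over 7451 bp at its 5′ end, with 2.84 to 13.6 and a region at 4. At Errfi1 listed peaks also abutted across the TSS, with scores of 17 to 54, and those above the threshold began downstream, with the first summit at 1157 bp, and ended at 150244761, past the gene's end at 150243001. At Alb the abutting peaks at and past the gene's 3′ end were nearest to Afp, the next gene, and are not among the 12. The haem synthesis gene Alas1 and the gluconeogenic gene Pck1 had 6 each, and Amn1, Serpina5, Ces3b and Cyp2e1 had 5 each, which covered less of the gene (43.9% of Cyp2e1, 31.7% of Ces3b and 7.27% of Amn1) or, at Serpina5, lay outside it.

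RXRα was lower relative to input in the bodies of these genes than at their starts. The ratio of RXRα to input within 500 bp of the TSS was 16 at Errfi1, against 1.75 in the gene body beyond 1 kb. The same ratios were 4.32 and 1.83 at Alb, 14 and 4.65 at Neat1, and 9.77 and 4.82 at Serpina3k, so that in the last 2 genes the body was still close to the median of 4.90 of all high scoring peaks. The highest RXRα bin lay at -1707 bp from the TSS at Errfi1, -1291 bp at Neat1 and -1319 bp at Serpina3k, where the RARα peaks scored 17, 40 and 19. At Alb it lay at -138 bp, in the promoter peak of score 221. In 3 of the 4 genes RXRα therefore peaked where the RARα score was far below the threshold.

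**Figure D5:**
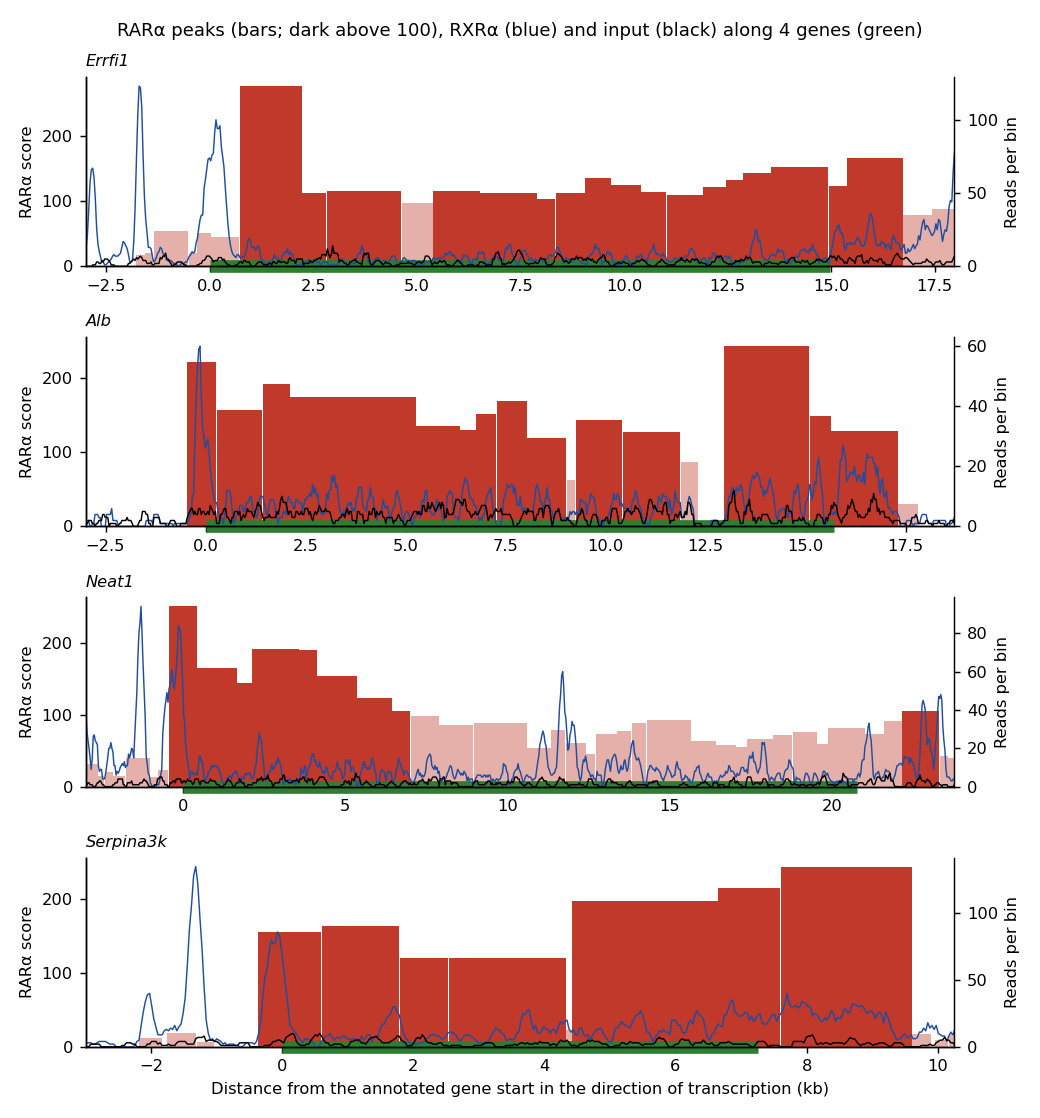
RARα peak scores (bars, dark above 100, left axes) and RXRα (blue) and input (black) coverage per 32 bp bin (right axes) along Errfi1, Alb, Neat1 and Serpina3k against the distance from the TSS (x axis, kb), with the gene in green. High scoring RARα peaks continue through the gene bodies, where the ratio of RXRα to input is 1.75 at Errfi1 and 1.83 at Alb, below the 16 and 4.32 near the TSS.

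Among non-coding genes, high scoring peaks were about as frequent at lincRNA genes as at protein-coding genes and less frequent at the other types. Counting every gene type by its own start, 908 symbols, 2.68% of all, had a high scoring peak within 1 kb. By gene type these were 788 of 22367 protein-coding genes (3.52%), 41 of 1273 lincRNA genes (3.22%), then 25 of 1552 snoRNA genes (1.61%), 32 of 2572 processed transcripts (1.24%), 12 of 1577 miRNA genes (0.761%), 6 of 1423 snRNA genes (0.422%), 1 of 332 rRNA genes (0.301%), 8 of 5201 pseudogenes (0.154%) and 0 of 487 miscellaneous RNA genes. Examples, named after their values were seen, were the snoRNA hosts Gas5 (score 202, enrichment 4.28) and Snhg3 (176, 8.06) and 2 copies of the spliceosomal U1 RNA gene (195 and 181). Copies of U1 are near-identical, so reads at them may be placed on another copy.

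Compared with the whole list, the sequence under the high scoring peaks was rich in GC and CpG and poor in the receptor hexamer. Windows reached 100 bp to each side of the summits. Their median GC content was 63.2%, against 59.2% at scores of 51 to 100 and 48.8% over the list. The median ratio of observed to expected CpG was 0.807, against 0.657 and 0.245. At the TSS of genes with a high scoring peak within 1 kb this median was 0.880. It was 0.878 for genes whose highest score within 1 kb was 51 to 100. On either strand, the hexamer AGGTCA occurred in 76 windows (7.06%, 5.68 to 8.75), against 10.1% at scores of 51 to 100, 15.1% over the list and 10.9% in the flanks of the same peaks. Within 1 kb of a TSS the hexamer shares were 5.80% (4.32 to 7.75), against 7.66% (6.80 to 8.63) at scores of 51 to 100. Beyond 1 kb they were 9.66% (6.99 to 13.2) against 12.7% (11.6 to 13.9), and the intervals overlapped in both places. The hexamer occurred in 1 of the 68 windows with a score above 200. Where an RXRα region overlapped, its share was 8.98%, and elsewhere 5.53%. Direct repeats were searched with A or G at the first base and G or T at the third base of each hexamer. They were found in 0 windows for spacings of 1, 2, 3 and 5 bases. Over the list these spacings were found in 0.336%, 0.164%, 0.0754% and 0.0900% of windows. The interval for 0 of 1076 reached 0.356%, so each zero taken alone did not differ from the list beyond counting error. The spacings were not compared with the list together. DR4 was found in 2 windows, at Slc6a9 (score 108, enrichment 14.3) and Aldh2 (score 123, 7.69), against 0.102% of the list. No match says only that these letters are not in the window.

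Of the motifs known from promoters, some were more and some less frequent than at scores of 51 to 100. The GC box, GGGCGG, occurred in 46.7% of the windows (43.7 to 49.6), against 37.3% at scores of 51 to 100, 11.4% of the list and 18.8% in the flanks. Within 1 kb of a TSS its share was 57.9%, against 57.6% at scores of 51 to 100, so that in promoters it did not separate these classes. TATAAA did differ in promoters, with 13.3% of the windows against 3.42% at scores of 51 to 100, and above a score of 200 it reached 27.9% (18.7 to 39.6) of all windows. Within the 50 bases before the TSS, as in the stretches of Junb, Polr2a, Cebpa and Fos shown above, it occurred at 33 of 708 genes (4.66%, 3.34 to 6.47), against 1.32% of genes at scores of 51 to 100, 0.922% at 21 to 50 and 3.09% of all genes. CCAAT occurred in 27.0% of windows and 23.5% of the list. Within 1 kb of a TSS the ETS motif CCGGAA was less frequent than at scores of 51 to 100, 18.1% (15.5 to 21.1) against 24.9% (23.5 to 26.4). The YY1 motif AAGATGGC was found in 3.18% against 5.40%, the E-box CACGTG in 4.56% against 6.35% and the NRF1 motif GCGCATGC in 3.45% against 4.21%, with overlapping intervals. The CRE occurred in 2.23% of windows, against 1.47% at scores of 51 to 100, 0.429% of the list and 0.325% in the flanks. Within 1 kb of a TSS its share was 2.62% (1.69 to 4.06), against 2.14% (1.70 to 2.69) at scores of 51 to 100, with overlapping intervals.

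Other promoter motifs were searched on both strands in the 250 bases before the TSS, and were chosen after the data were seen. The CRE was there in 4.10% of 708 genes with a high scoring peak and in 1.91% of all genes. Among the immediate early and feedback regulators with such a peak, 5 of 36 had it (Btg2, Dusp1, Ier2, Ppp1r15a and Trib1, of which 3 are shown above). The heat shock element TTCNNGAA was in 5.51% of the genes against 6.59% of all, and in 0 of the 19 heat shock genes with a peak. The serum response element was in 2.97% against 1.34%, the sterol element TCACNCCAC in 1.55% against 1.03% and the HNF1 box in 0 against 0.0313%.

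Away from gene starts, the CTCF core match occurred in 38 of the 352 peaks (10.8%, 7.97 to 14.5), against 19.1% of the far peaks at scores of 51 to 100 and 3.82% of all far peaks, and in 0 flanks. In the 724 peaks near a TSS it occurred in 3 (0.414%). Of the peaks near a TSS, 38 had few CpG dinucleotides (observed to expected below 0.4). An RXRα region overlapped 26 of these (68.4%, 52.5 to 80.9), with a median enrichment of 8.19, against 44.9% and 5.09 in the other 686. Over the whole list the order was opposite and the difference small, 17.8% against 19.5% of the peaks near a TSS.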

How the data were processed

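RARα peaks were deposited by the authors as a MACS peak list with a peak score, a summit and a false discovery rate in percent. RXRα and input DNA were deposited as signal tracks of whole-number coverage in 32 bp bins. Reads were processed with CASAVA 1.4, Bowtie and MACS per the labels. The methods name mm10 for alignment and mm9 for annotation, and the deposited coordinates fit mm9, which was used throughout. MACS widths and scores depend on depth, and reads in repeated sequence can pile up in all libraries.

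Peaks with a score above 100 were assigned by summit to the nearest of 22367 protein-coding gene starts (GENCODE M1). A gene part was taken in the order 5′ UTR, coding sequence, 3′ UTR, intron, other transcript. Bins whose centre lay in a peak gave its mean coverage, after scaling the tracks to equal totals. Each read covered 5 bins. Shares have Wilson intervals, medians have order-statistic intervals, and ratios of reads have exact binomial intervals, all at 95%. The script was tested on simulated data. Neighbouring gene symbols came from RefSeq (GRCm38.p6), and printed sequence from mm9. Motifs were searched on both strands. The members and gene lists were chosen with earlier results of these data known. Named were the nearest genes of the 15 highest scores, the 6 highest and 6 lowest RXRα enrichments, the 5 highest inputs, the 5 farthest peaks, the 5 genes with most peaks, the 4 highest scores of each gene list, and 3 peaks on each side of the threshold. Some genes that this rule names are not reported here. Python 3.11.15, numpy 2.4.6, pandas 2.3.3, scipy 1.17.1, pysam 0.24.0 and matplotlib 3.10.9 were used.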

Additional observations from a re-analysis of the deposited data

How the results depend on the processing

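Of 29 alternatives, 15 left their value within its interval or within 1.5 times the count, and 14 moved it. The share of high scoring peaks that overlap an RXRα region, 44.5%, was 75.8% at 10 times input (list 30.2%), 22.4% at 30 times (list 11%), 83.5% against the mean input alone (list 26.4%) and 57.2% with abutting peaks joined into 981. With a region required within 100 bp of the summit, chosen after seeing the data, it was 32.3% (list 16.3%). The median enrichment, 4.90, was 6.58 within 100 bp of the summit and 18.3 by the highest bin. The median input, 1.97 per bin, was 2.17 at the summit, 1.84 with peaks joined and 2.25 at scores above 150. The share within 1 kb of a TSS, 67.3%, was 77.6% with all transcripts, 72.1% with peaks joined and 73.9% at scores above 150, where the nearest genes fell from 943 to 237. Leaving out the 16 peaks of high input, and counting 1 peak a gene in the gene groups, were also chosen after seeing the data. The level of each share therefore depends on the threshold, and the high scoring peaks were above the list at each RXRα threshold tried. No paired analysis was possible because each antibody and the input had 1 library. No result has a replicate check, the RARα reads were not analysed here, and its depth and score scale limit any comparison with RXRα.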
